A study of Mus musculus with 6 samples.

Results

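The laminin chain family comprised 10 genes, *Lama1*, *Lama2*, *Lama3*, *Lama4*, *Lama5*, *Lamb1*, *Lamb2*, *Lamb3*, *Lamc1* and *Lamc3*, taken by symbol from the 24015 gene rows of the count tables. RNA-Seq had been performed on 6 libraries from mouse sciatic nerve at postnatal day 14, each from a pool of 3 nerves. The 3 control libraries came from Rnf40 fl/fl mice, which carry the floxed alleles without Cre, and the 3 Rnf40ΔSC libraries from Dhh::Cre, Rnf40 fl/fl mice, in which the *Dhh* promoter drives Cre in the Schwann cell lineage. The labels give a mixed 129SvJ/C57Bl/6J background for all mice, whereas the methods name C3H in place of 129SvJ. The question was which laminin chains change when Schwann cells lose Rnf40, an E3 ligase for histone H2B, and which trimers the remaining chain RNAs favour. Other cells of the nerve, such as fibroblasts, perineurial cells, vessels and immune cells, were part of every pool.

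Laminins are secreted trimers of an α, a β and a γ chain that assemble inside the cell and polymerise on its surface into the sheet on which a basement membrane is built. The α chain carries the globular domains that bind integrins and dystroglycan, while the β and γ chains contribute the coiled coil and the short arms through which trimers join and through which nidogen links them to collagen IV. Schwann cells need their basal lamina to sort axons and to myelinate, and loss of the α2 chain in muscle and nerve causes a muscular dystrophy with a dysmyelinating neuropathy. Trimers are named by the numbers of their α, β and γ chains in that order, so that laminin 211 holds the products of *Lama2*, *Lamb1* and *Lamc1*.

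Among α chains, *Lama1* was nearly absent from control nerve and present in all Rnf40ΔSC libraries, while *Lama4* fell. *Lamb1* and *Lamb2* fell to the same degree, and the main γ chain, *Lamc1*, did not pass the test. *Lamc3*, a minor γ chain, rose. *Lama2* did not pass the test. Laminin 411 took a smaller part of what the RNA would allow in all Rnf40ΔSC libraries (exact permutation p = 0.1, 0.2 adjusted over 8 products). Whether laminin 211 or laminin 411 came first depended on the length by which counts were divided. These directions are those with TMM scaling, and with total-count scaling *Lama4* and *Lamb2* did not pass.

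Libraries held between 1317167 and 2468765 counts on genes, so that 1 read stood for 0.405 to 0.759 CPM, the unit of reads scaled to library size. Values are given as normalized counts, brought to one library size by TMM, a scaling that assumes most genes do not change. The quasi-likelihood test of edgeR compared the genotypes, and a gene passed at a Benjamini-Hochberg adjusted p of at most 0.05 over the 11371 genes that survived the filter on low counts. *Rnf40* itself, as the check of the labels, had 127, 123 and 138 normalized counts in control and 87.7, 87.9 and 91.5 in Rnf40ΔSC libraries. Each Rnf40ΔSC library lay below each control library. On the log2 scale *Rnf40* fell by 0.54 in edgeR's test (adjusted p = 0.00242), and with total-count scaling the value was -0.27 and did not pass (0.12).

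Of the 10 chains, 9 were tested and *Lamb3* had too few counts. In edgeR's test 2 were higher in Rnf40ΔSC nerve, where 15.4% of all tested genes were, and 3 were lower, where 16.2% of all tested genes were. In either direction this made 5 of 9 beside a background of 31.6%. *Lama1* entered the test only through the genotype in which it is high, so it had to differ, and the count is a description of the family. The libraries of the 2 genotypes did not overlap for the same 5 chains, a pattern found in 43.5% of all tested genes. With the limits of the study added (a log2 fold change of 0.8 or more in size and a mean of 20 or more normalized counts), *Lama1* and *Lamc3* were higher beside 3.65% of all genes, and 0 chains were lower beside 4.99% of all genes, in edgeR's test as with DESeq2, and 0 at an unadjusted p under 0.05. Without these limits DESeq2 gave 3 lower chains, as edgeR did. No share over all genes was counted for DESeq2 or the unadjusted p, so counts by these rules, here and below, are descriptions.

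The scaling matters for the smaller differences. Over all tested genes the median log2 fold change was 0.00 with TMM and 0.27 when libraries were scaled by total counts, and all chains moved up by about this amount. *Lama1* and *Lamc3* were higher and *Lamb1* lower under both scalings, while the background went to 33.1% higher and 7.74% lower with total-count scaling. *Lama4* and *Lamb2* kept a negative sign but lost the call, and *Lama2* and *Lamc1* changed from negative to positive values without passing the test. Shares and ratios formed within a library, given further on, do not depend on the scaling.

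**Figure D1:**
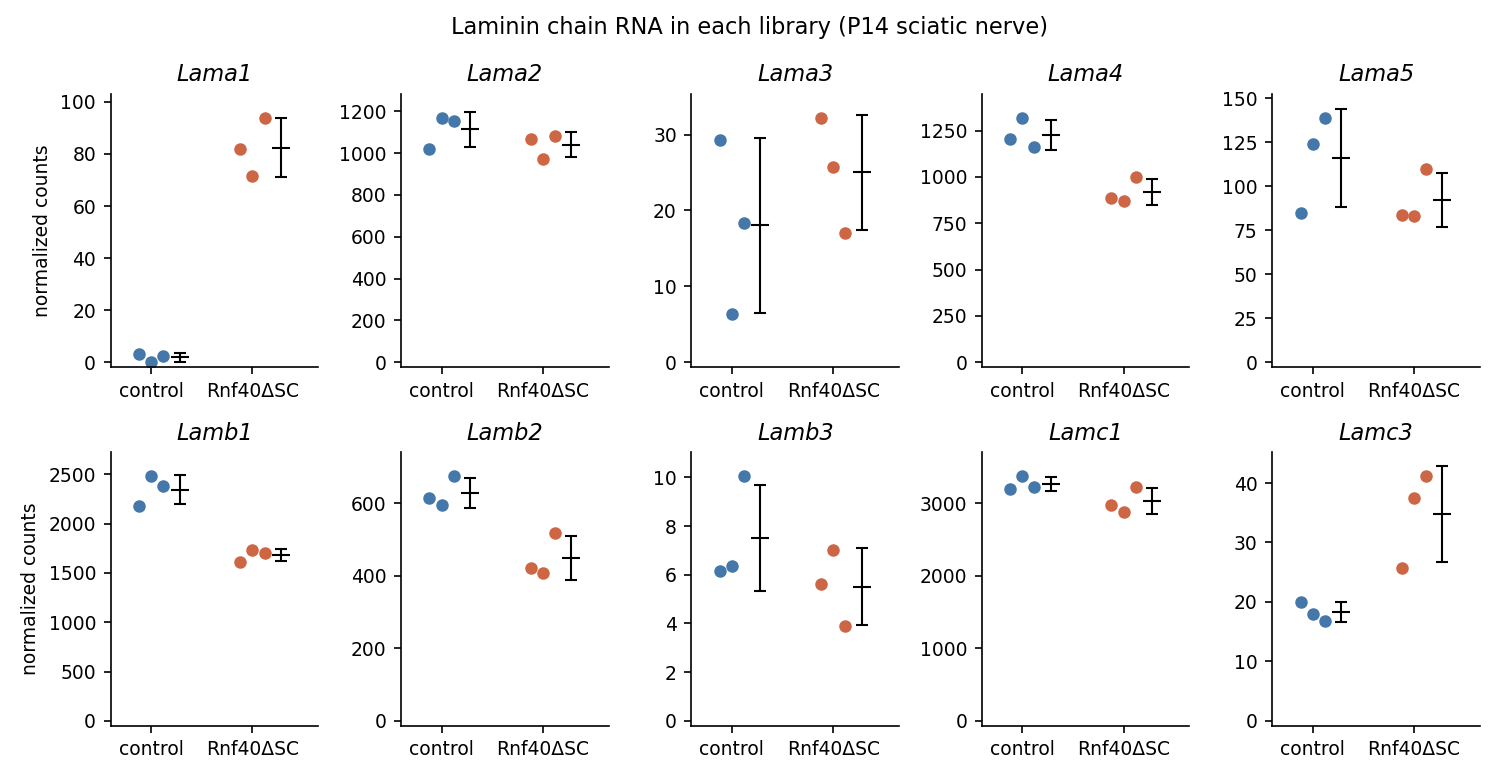
Normalized counts (vertical axes, linear) of the 10 laminin chains in each of the 3 control (blue) and 3 Rnf40ΔSC (orange) libraries, with the mean and SD in black. *Lama1* and *Lamc3* lie higher and *Lama4*, *Lamb1* and *Lamb2* lower in all Rnf40ΔSC libraries, and the other 5 chains overlap; with total-count scaling *Lama4* and *Lamb2* do not pass the test.

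*Lama1* (chr17:68046605-68171985 of mm9, plus strand) encodes the α1 chain, which is typical of early embryonic and some epithelial basement membranes and is not a usual chain of adult nerve. It had 2, 0 and 3 reads in control replicates 1, 2 and 3, and 102, 61 and 121 reads in Rnf40ΔSC replicates 1, 2 and 3. All Rnf40ΔSC libraries stood far above all controls, and the 3 of them were alike. After scaling these were 3.09, 0 and 2.51 against 82.1, 71.5 and 93.8 normalized counts. From the pooled reads, 284 against 5, the ratio of Rnf40ΔSC to control was 46.8, with a 95% interval of 19.8 to 145 that covers counting error only. *Lama1* reached the filter level in Rnf40ΔSC libraries only, so it had to differ, and its adjusted p is a description. The fitted value was 5.44 on the log2 scale (standard error 0.64, adjusted p = 9.82e-15 in edgeR's test). It depends on the prior count placed on the nearly empty control libraries, and DESeq2 with a fold-change prior gave 3.91. Without control replicate 2, the library at 0, it was 4.87, and without control replicate 3 it was 5.91. Per length the level in Rnf40ΔSC nerve was 4.62 ± 0.63 CPM per kilobase of exon (SD, n = 3), within the spread of *Lama5* at 4.32 ± 0.72 and below *Lama4* at 40.6 ± 3.15.

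*Lama2* (chr10:26701094-27336748, minus strand) encodes the α2 chain of muscle and Schwann cells, which binds dystroglycan and integrin α7β1 or α6β1. Its normalized counts were 1019, 1168 and 1153 in control and 1066, 972 and 1084 in Rnf40ΔSC libraries. The groups overlapped, as control replicate 1 lay below Rnf40ΔSC replicates 1 and 3. The log2 fold change was -0.10 with a 95% interval of -0.28 to 0.08 (adjusted p = 0.428 in edgeR's test), and 0.17 with total-count scaling (adjusted p = 0.11; 0.11 to 0.758 over all alternatives).

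*Lama4* (chr10:38685321-38829994, plus strand) encodes the α4 chain, which lacks the N-terminal short arm needed to polymerise and is made by Schwann cells, endothelium and other mesenchymal cells. Control libraries held 1205, 1318 and 1159 normalized counts and Rnf40ΔSC libraries 889, 868 and 1001. Even the highest Rnf40ΔSC library, replicate 3, was under the lowest control. *Lama4* thus fell by 0.42 on the log2 scale (standard error 0.09, adjusted p = 0.000341 in edgeR's test), but with total-count scaling by 0.15, with an adjusted p of 0.19 (1.31e-05 to 0.19 over all alternatives).

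*Lama5* (chr2:179911078-179960564, minus strand) encodes the α5 chain of mature vessels and many epithelia. It had 84.9, 124 and 139 normalized counts in control and 83.7, 83.2 and 110 in Rnf40ΔSC libraries. Control replicate 1 was close to Rnf40ΔSC replicates 1 and 2 and below Rnf40ΔSC replicate 3, so the groups overlapped. The log2 fold change of -0.35 (95% interval -0.68 to -0.02) had an adjusted p of 0.0918 in edgeR's test. A single library decided this call. Without control replicate 1 *Lama5* stood at -0.50 on the log2 scale (adjusted p = 0.0188 in edgeR's test) and without Rnf40ΔSC replicate 3 at -0.51 (adjusted p = 0.0151; 0.0151 to 0.729 over all alternatives).

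*Lama3* (chr18:12492533-12741522, plus strand) encodes the α3 chain of the laminin that anchors skin epithelia. It was scarce and scattered, at 29.3, 6.36 and 18.4 normalized counts in control and 32.2, 25.8 and 17.1 in Rnf40ΔSC libraries. The groups overlapped widely, and the log2 fold change of 0.54 had a 95% interval of -0.23 to 1.31 (adjusted p = 0.292 in edgeR's test). With 1 library left out at a time it ran from 0.12, without control replicate 2, to 0.94, without control replicate 1.

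*Lamb1* (chr12:31950099-32014509, plus strand) encodes the β1 chain, the β chain of the Schwann cell basal lamina. Its normalized counts were 2184, 2480 and 2378 in control and 1616, 1737 and 1699 in Rnf40ΔSC libraries. The groups were separated by a gap wider than the range within either of them. *Lamb1* fell by 0.48 on the log2 scale (standard error 0.08, adjusted p = 1.26e-05 in edgeR's test). With total-count scaling it fell by 0.21, and its adjusted p of 0.0319 was the highest over all alternatives, the lowest being 1.23e-07.

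*Lamb2* (chr9:108382193-108392861, plus strand) encodes the β2 chain of the neuromuscular junction, the kidney glomerulus and, in nerve, mainly the perineurium. It had 614, 594 and 674 normalized counts in control and 423, 408 and 517 in Rnf40ΔSC libraries. Again no Rnf40ΔSC library reached a control library, with replicate 3 the highest of the 3. *Lamb2* fell by 0.48 on the log2 scale (standard error 0.10, adjusted p = 0.000219 in edgeR's test). With total-count scaling it fell by 0.21 with an adjusted p of 0.0936 (1.25e-06 to 0.0936 over all alternatives). *Lamb3* (chr1:195128151-195170072, plus strand), whose β3 chain belongs to the skin laminin, had 4, 6 and 12 reads in control and 7, 6 and 5 reads in Rnf40ΔSC libraries and was not tested.

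*Lamc1* (chr1:155066052-155179916, minus strand) encodes γ1, the most widespread γ chain. It had 3198, 3368 and 3228 normalized counts in control and 2975, 2878 and 3227 in Rnf40ΔSC libraries. Only Rnf40ΔSC replicate 3 reached into the control range. The log2 fold change was -0.11, with a 95% interval of -0.26 to 0.05 (adjusted p = 0.296 in edgeR's test), and 0.16 with total-count scaling (adjusted p = 0.0832; 0.0832 to 0.585 over all alternatives).

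*Lamc3* (chr2:31742811-31802059, plus strand) encodes the γ3 chain, known from brain, retina and some nerves. It had 20.1, 18.0 and 16.7 normalized counts in control and 25.8, 37.5 and 41.1 in Rnf40ΔSC libraries. The groups did not overlap, although Rnf40ΔSC replicate 1 stood closer to the controls than to the other Rnf40ΔSC libraries. *Lamc3* rose by 0.94 on the log2 scale (standard error 0.28, adjusted p = 0.00774 in edgeR's test). Without control replicate 3 it was 0.87 with an adjusted p of 0.0506, the highest over all alternatives, which began at 0.000612. Exons of *Lamc3* share 382 bases with *Gm13441* on the opposite strand, and as the strand setting of the counting is not given, reads of the pair cannot be told apart there.

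**Figure D2:**
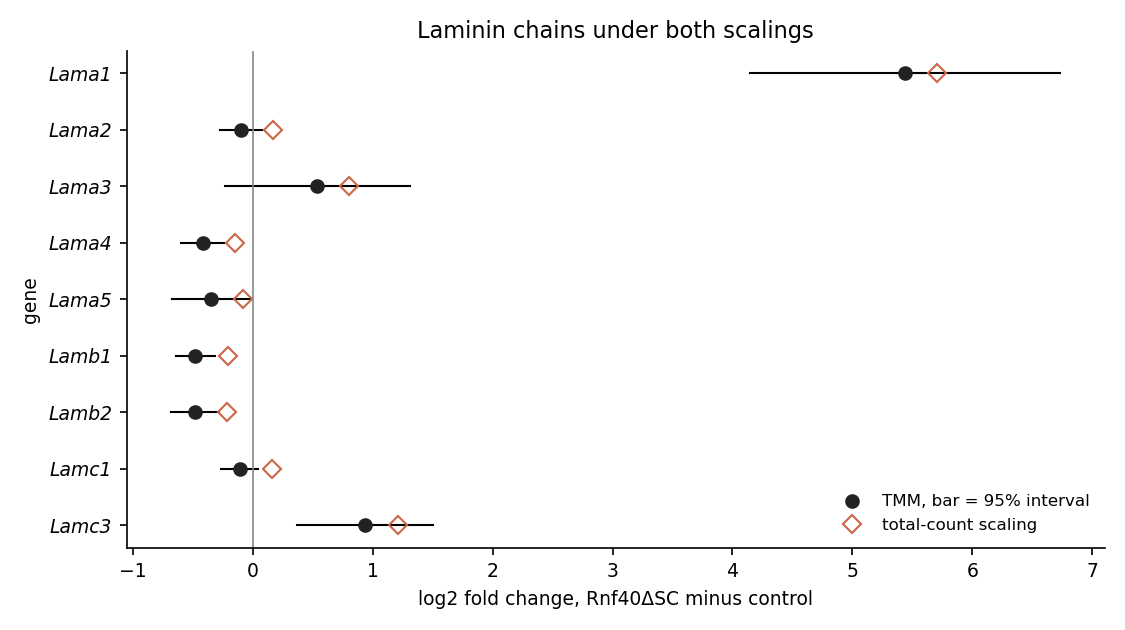
Log2 fold change (Rnf40ΔSC minus control, horizontal axis) of the 9 tested chains (vertical axis), with TMM scaling as filled points and 95% intervals as bars, and with total-count scaling as open diamonds. The diamonds lie about 0.27 to the right throughout, which carries *Lama2* and *Lamc1* across 0 and leaves *Lama1* at 5.70, *Lamc3* at 1.21 and *Lamb1* at -0.21.

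Levels were compared between chains as CPM per kilobase of the union of exons in the GENCODE vM1 annotation. In control nerve *Lamc1* led with 211 ± 5.86 (SD, n = 3), followed by *Lamb1* with 126 ± 8.10. *Lama2* at 61.1 ± 4.51, *Lamb2* at 59.5 ± 3.96 and *Lama4* at 54.3 ± 3.61 came next, and these 3 neighbours did not differ beyond their spread. *Lama5* followed at 5.42 ± 1.3, and the remaining chains were minor, with *Lamc3* at 1.60 ± 0.15, *Lamb3* at 0.92 ± 0.27, *Lama3* at 0.91 ± 0.58 and *Lama1* at 0.10 ± 0.09. In Rnf40ΔSC nerve *Lamc1* at 195 ± 11.6 and *Lamb1* at 90.6 ± 3.34 again led. There *Lama2* at 57.1 ± 3.27 stood apart from *Lamb2* at 42.6 ± 5.64 and *Lama4* at 40.6 ± 3.15, which did not differ beyond their spread. *Lama1* had moved from last place to sixth, beside *Lama5*. The place of *Lama4* depends on the length used, since its longest coding sequence has 5448 bases and its union of exons 12068, against 9354 and 9728 for *Lama2*. Per kilobase of coding sequence *Lama4* stood at 120 ± 7.99 and *Lama2* at 63.5 ± 4.69 in control, and at 90.0 ± 6.99 and 59.3 ± 3.40 in Rnf40ΔSC nerve.

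Summed per class over the 10 genes on the same scale, the γ chains *Lamc1* and *Lamc3* amounted to 212 ± 5.82 CPM per kilobase in control and 198 ± 11.9 in Rnf40ΔSC nerve (SD, n = 3). The sum of β chains was 187 ± 8.94 and 134 ± 6.68, and that of α chains 122 ± 6.83 and 108 ± 7.01. Within each library, the β sum divided by the γ sum was 0.849, 0.871 and 0.921 in control and 0.658, 0.704 and 0.666 in Rnf40ΔSC replicates 1, 2 and 3. Every Rnf40ΔSC library thus had less β chain RNA per γ chain RNA than every control (exact two-sided permutation test, p = 0.1, the smallest that 3 against 3 libraries can give; 0.125 adjusted over the 5 ratios tested). The α sum divided by the γ sum was 0.574 ± 0.02 in control and 0.544 ± 0.01 in Rnf40ΔSC libraries, which overlapped (mean difference -0.0294, exact permutation p = 0.2). Per kilobase of coding sequence and with raw counts the genotypes did not overlap in this ratio (-0.0519 and -0.0488, each exact permutation p = 0.1).

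To compare which chains could enter a trimer, each chain was expressed as its percentage of the summed counts per kilobase of its class in the same library. *Lama2* made up 48.7, 49.9 and 51.8% of α chain RNA in control and 54.2, 52.9 and 51.7% in Rnf40ΔSC libraries. *Lama4* made up 46.4, 45.3 and 42.0% in control and 36.4, 38.0 and 38.5% in Rnf40ΔSC libraries. *Lama1* rose from 0.151, 0 and 0.115% to 4.27, 3.97 and 4.58%. For *Lama4* and *Lama1* the groups did not overlap, with differences in mean share of -6.94 and 4.18 percentage points (each exact permutation p = 0.1, 0.25 adjusted over 10 shares). For *Lama2* they overlapped in Rnf40ΔSC replicate 3, with a difference of 2.79 points (exact permutation p = 0.2), but not per kilobase of coding sequence or with raw counts (3.79 and 3.28 points, exact permutation p = 0.1). The loss of *Lama4* share was thus larger than what *Lama1* took up, and the ratio of *Lama2* to *Lama4* went from 1.13 ± 0.10 in control to 1.41 ± 0.07 in Rnf40ΔSC libraries (exact permutation p = 0.1). Per kilobase of coding sequence the ratio was 0.529 ± 0.05 and 0.661 ± 0.03, and with raw counts 0.909 ± 0.08 and 1.13 ± 0.06, so that *Lama4* exceeded *Lama2* in every library by the former and in the controls by the latter, while each Rnf40ΔSC library lay above each control by either (exact permutation p = 0.1).

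In the β class the genotypes overlapped. *Lamb1* accounted for 67.6 ± 2.1% of β chain RNA in control and 67.7 ± 2.73% in Rnf40ΔSC nerve (SD, n = 3), and *Lamb2* for 31.9 ± 2.02% and 31.8 ± 2.89%, with single libraries from 64.9 to 70.3% for *Lamb1*. Of the RNA of *Lamc1* and *Lamc3* together, *Lamc1* held 99.2 ± 0.08% in control and 98.5 ± 0.32% in Rnf40ΔSC nerve, and *Lamc3* went from 0.755 ± 0.08% to 1.53 ± 0.32% (each exact permutation p = 0.1), so that γ1 far outweighed γ3 in either genotype.

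**Figure D3:**
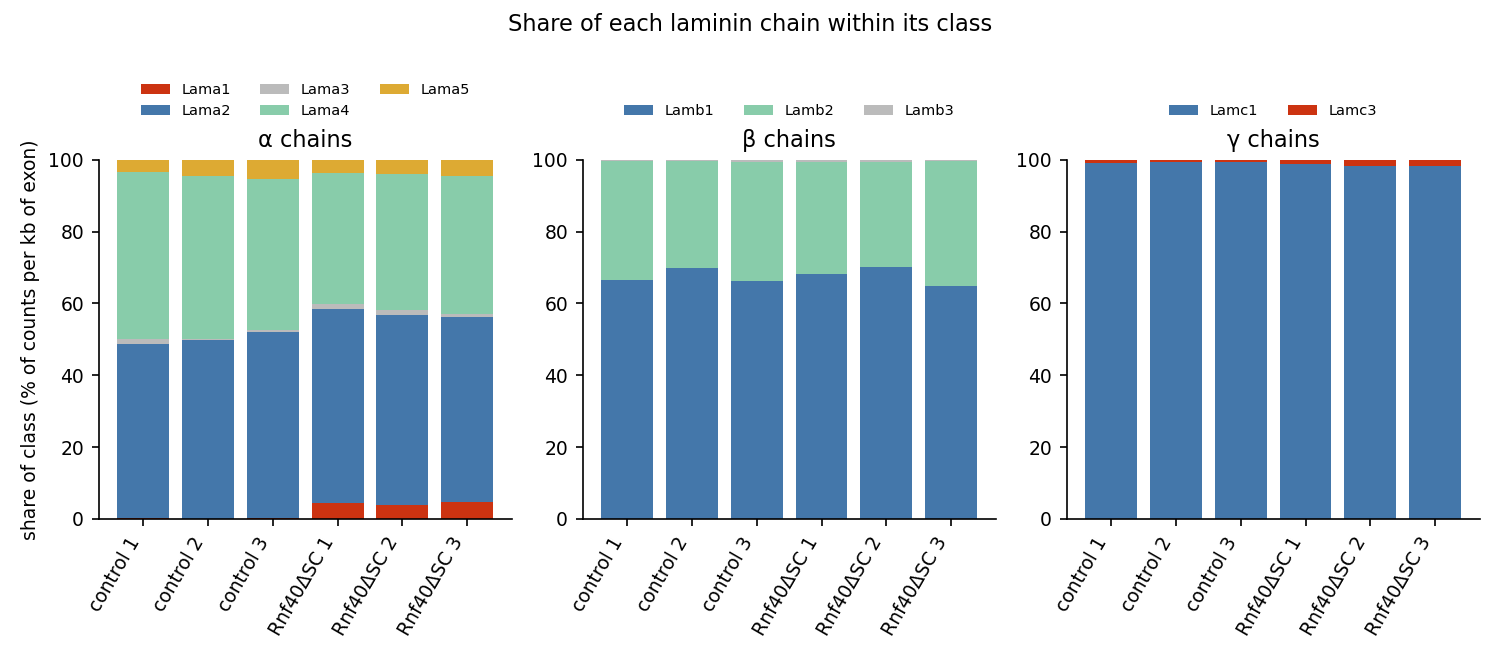
Share of each chain in the summed counts per kilobase of exon of its class (vertical axis, percent) in each library, for α, β and γ chains. In the α class the red band of *Lama1* reaches 3.97 to 4.58% in Rnf40ΔSC libraries and the green band of *Lama4* shrinks from 42.0 to 46.4% down to 36.4 to 38.5%, while the bands of the β class overlap between genotypes.

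If chains of each class were drawn in proportion to their RNA, the product of 3 shares would give the share of each trimer. This is arithmetic on RNA, since trimers were not measured, other steps than RNA level decide assembly, and chains of different cell types, which cannot meet, are pooled in whole nerve. With counts per kilobase of exon, laminin 211 would stand at 32.1, 34.7 and 34.1% in control replicates 1, 2 and 3, and laminin 411 at 30.6, 31.5 and 27.6%. In Rnf40ΔSC nerve laminin 211 would take 36.5, 36.5 and 33.0% and laminin 411 24.5, 26.3 and 24.5%. Laminin 211 thus exceeded laminin 411 in every library, but this order turned with the length rule. Per kilobase of coding sequence laminin 411 came first in every library, with 49.1 ± 2.27% against 25.9 ± 1.25% for laminin 211 in control and 43.6 ± 1.17% against 28.8 ± 1.49% in Rnf40ΔSC nerve. With raw counts laminin 411 came first in each control (38.8 ± 2.25% against 35.2 ± 1.29%) and laminin 211 in each Rnf40ΔSC library (37.6 ± 1.78% against 33.1 ± 0.98%). By all 3 rules laminin 411 was lower in all Rnf40ΔSC libraries (mean difference -4.83 points, exact permutation p = 0.1, 0.2 adjusted over 8 products), with the test given for the exon rule. Laminin 211 overlapped between genotypes by the exon rule (1.68 points, exact permutation p = 0.3; 0.923 without control replicate 1 and 2.85 without Rnf40ΔSC replicate 3) and with raw counts, but not per kilobase of coding sequence (exact permutation p = 0.1).

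Per kilobase of exon, laminin 221 stood at 15.9 ± 1.20% in control and 16.5 ± 1.32% in Rnf40ΔSC nerve, and laminin 421 at 14.1 ± 0.98% and 11.8 ± 1.23% (SD, n = 3). Per kilobase of coding sequence laminin 221 would have 7.09 ± 0.69% and 7.80 ± 0.72%, and the genotypes, which did not overlap for laminin 421 by the exon rule (exact permutation p = 0.1), did by both other rules (p = 0.2). Laminin 111, the embryonic form, would go from 0.0584 ± 0.05% to 2.84 ± 0.09%, and laminin 121 from 0.0291 ± 0.03% to 1.34 ± 0.22% (0.626 ± 0.11% in Rnf40ΔSC nerve per kilobase of coding sequence). The genotypes did not overlap for either of them by any of the 3 rules, at an exact permutation p of 0.1. Laminin 511 stood at 2.97 ± 0.63% in control and 2.65 ± 0.21% in Rnf40ΔSC nerve. In Rnf40ΔSC replicates 1, 2 and 3 laminin 111 had 2.87, 2.74 and 2.92% and laminin 511 2.44, 2.66 and 2.86%, whereas with raw counts laminin 511 was the larger in each.

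Laminin receptors transmit the basal lamina to the Schwann cell. Integrin α6 pairs with β1 in immature Schwann cells and with β4 once they myelinate, and dystroglycan, encoded by *Dag1*, binds laminin through sugar chains. Of 8 receptor genes tested, 1 was higher, 4 were lower and 3 did not pass (1 higher and 2 lower with total-count scaling; the background of each direction given above for the chains holds for this list and those that follow), with a median log2 fold change of -0.20 (0.00 over all tested genes). *Itgb4*, the β4 integrin, had 790, 900 and 925 normalized counts in control and 278, 227 and 302 in Rnf40ΔSC libraries. All Rnf40ΔSC libraries were far below all controls, and *Itgb4* fell by 1.69 on the log2 scale (standard error 0.10, adjusted p = 4.77e-16 in edgeR's test). *Itga6* had 2423, 2367 and 2155 normalized counts in control and 3251, 3409 and 3132 in Rnf40ΔSC libraries. It was higher in all of them and rose by 0.50 on the log2 scale (standard error 0.08, adjusted p = 4.36e-06 in edgeR's test), opposite to its partner.

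*Itgb1*, the common partner of laminin-binding α integrins, had 2224, 2290 and 2226 normalized counts in control and 2023, 2077 and 1907 in Rnf40ΔSC libraries. Its groups did not overlap, but its log2 fold change of -0.17 did not pass (adjusted p = 0.105 in edgeR's test) and was 0.10 with total-count scaling. Per kilobase of exon, the ratio of *Itgb4* to *Itgb1* was 0.207, 0.229 and 0.242 in control and 0.0801, 0.0637 and 0.0920 in Rnf40ΔSC libraries. Each Rnf40ΔSC library thus had less β4 per β1 integrin RNA than each control (exact permutation p = 0.1), and the ratio of *Itgb4* to *Itga6* went from 0.487 ± 0.07 to 0.107 ± 0.02 (exact permutation p = 0.1).

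*Dag1* was the most abundant receptor gene named here per length, at 711 ± 24.1 CPM per kilobase in control and 607 ± 40.4 in Rnf40ΔSC nerve. It fell by 0.23 on the log2 scale (standard error 0.07, adjusted p = 0.0152 in edgeR's test), a call that was lost without control replicate 2 (adjusted p = 0.0653), control replicate 3 (0.0713), Rnf40ΔSC replicate 1 (0.107) or Rnf40ΔSC replicate 2 (0.0771), and with total-count scaling the value was 0.04 (0.675; 0.00308 to 0.675 over all alternatives). *Itga3*, an α subunit that binds α5 and α3 laminins, had 24.1, 15.2 and 20.2 normalized counts in Rnf40ΔSC libraries against 41.7, 43.4 and 39.3 in control, and fell by 1.03 on the log2 scale (adjusted p = 0.00142 in edgeR's test). *Gpr126*, an adhesion receptor that binds laminin 211 and is required for myelination, fell by 0.42 (adjusted p = 0.00477), and with total-count scaling by 0.15 (0.328; 0.00178 to 0.328 over all alternatives). *Itga7*, the α2 laminin receptor of muscle, had a log2 fold change of -0.12 that did not pass (adjusted p = 0.412) and was 0.15 with total-count scaling. Among 12 tested genes that build the laminin-binding sugar on dystroglycan, 1 passed. *Pomt2*, a mannosyltransferase of the first step, fell by 0.50 (adjusted p = 0.00825 in edgeR's test), and with total-count scaling by 0.23 (0.22, the highest over all alternatives).

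Basement membrane partners join laminin into a sheet. Of 13 tested, 0 were higher, 7 were lower and 6 did not pass in edgeR's test. With total-count scaling 1 was higher and 6 were lower. DESeq2 gave 0 higher and 7 lower, and edgeR's unadjusted p under 0.05 gave 0 and 10. For these 2 rules the share over all genes was not counted. The median log2 fold change was -0.45 with TMM and -0.19 with total-count scaling, where all genes had 0.27. The nidogens, which tie the γ1 chain to collagen IV, differed from each other. *Nid2* had 1648, 1683 and 1647 normalized counts in control and 915, 990 and 1038 in Rnf40ΔSC libraries, while *Nid1* had 3747, 3966 and 3963 against 3663, 3640 and 3566. Neither overlapped between genotypes, but *Nid2* fell by 0.76 on the log2 scale (standard error 0.08, adjusted p = 3.77e-09 in edgeR's test), whereas the -0.10 of *Nid1* did not pass (adjusted p = 0.304) and was 0.17 with total-count scaling.

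The chains of the common collagen IV network, *Col4a1* and *Col4a2*, fell by 0.43 and 0.45 on the log2 scale (adjusted p = 3.72e-05 and 1.81e-05 in edgeR's test). With total-count scaling both were smaller, at -0.16 (adjusted p = 0.0833, the highest over all alternatives of *Col4a1*) and -0.19 (0.0491). *Col4a3*, a chain of kidney and lung networks, fell by 0.85 and *Col15a1*, a collagen of the outer basement membrane zone, by 0.55 (adjusted p = 0.00117 and 2.58e-07). Of the heparan sulphate proteoglycans, *Agrn* fell by 0.55 (adjusted p = 2.84e-05), while *Hspg2*, the gene of perlecan, had 5150, 5718 and 5677 normalized counts in control and 5376, 5103 and 6386 in Rnf40ΔSC libraries. The groups of *Hspg2* overlapped, with a difference of 0.03 on the log2 scale (adjusted p = 0.824 in edgeR's test) that became 0.30 with total-count scaling (0.00242, the lowest over all alternatives). The size of the fall in *Lamb1*, *Lamb2*, *Lama4*, *Col4a1* and *Col4a2* was thus similar with TMM, and *Lamc1*, *Lama2*, *Nid1* and *Hspg2* did not pass.

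**Figure D4:**
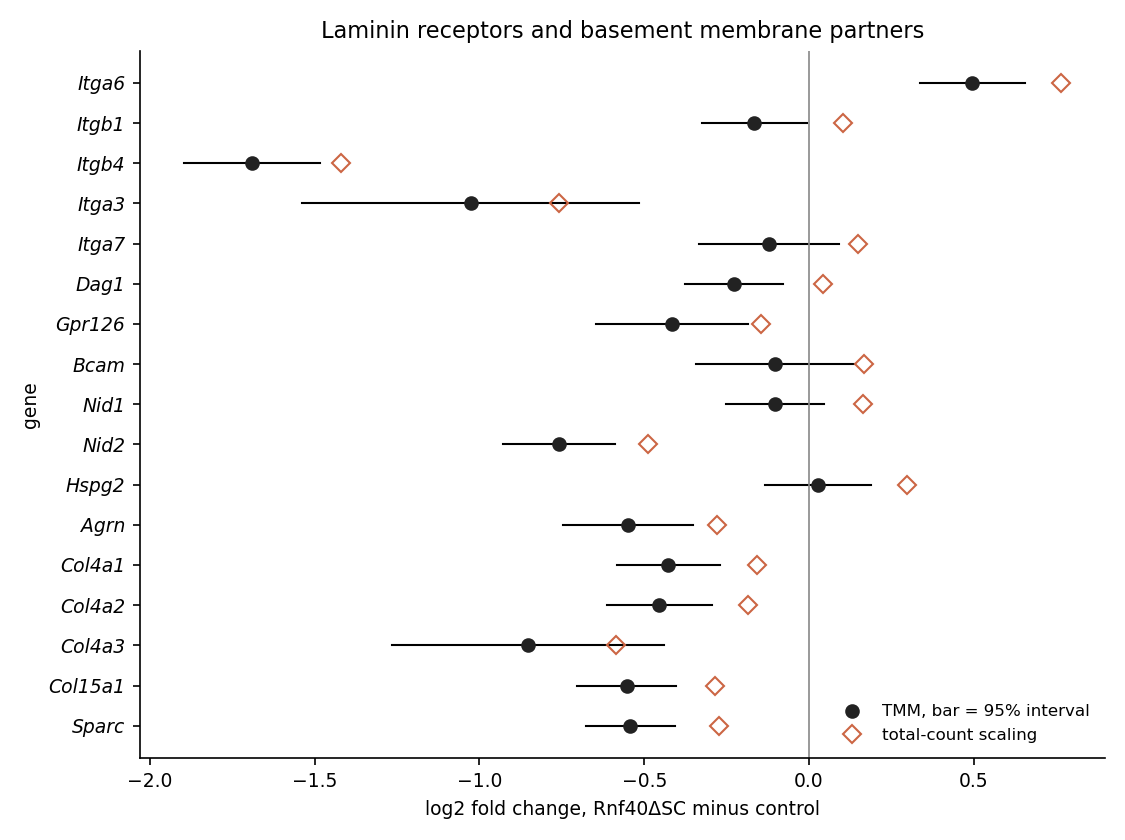
Log2 fold change (Rnf40ΔSC minus control, horizontal axis) of 8 laminin receptors and 9 basement membrane partners (vertical axis), with TMM scaling as filled points and 95% intervals as bars and total-count scaling as open diamonds. *Itgb4* stands far to the left at -1.69 and *Itga6* alone to the right of 0 with its interval, while *Dag1*, *Itgb1*, *Itga7*, *Bcam* and *Nid1* cross 0 when the scaling changes.

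Netrins share the short-arm domains of laminin chains, and netrin 4 can bind γ chains and break up the polymer. Of 5 tested, 1 was higher and 3 were lower (2 and 2 with total-count scaling). *Ntn4* had 57.1, 53.0 and 54.4 normalized counts in control and 25.8, 25.8 and 41.9 in Rnf40ΔSC libraries and fell by 0.79 on the log2 scale (adjusted p = 0.0053 in edgeR's test), a call lost with total-count scaling (-0.52, adjusted p = 0.0614) and without Rnf40ΔSC replicate 1 (-0.63, 0.0522). *Ntn1* fell by 0.56 and *Ntng1* by 0.78 (adjusted p = 4.49e-05 and 0.000677). *Ntn5* was the one that rose, from 1.54, 4.24 and 12.6 to 15.3, 23.4 and 23.3 normalized counts, by 1.53 on the log2 scale (adjusted p = 0.00495). It did not pass without control replicate 2 (1.28, 0.0503) and was 2.67 without control replicate 3. As 1 control library and all 3 Rnf40ΔSC libraries reached the filter level, *Ntn5* entered the test through the genotype in which it is high.

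Inside the cell, dystrophin-type proteins connect dystroglycan, and talin, kindlin and vinculin connect integrins, to the cytoskeleton. Of 15 such linkers tested, 5 were higher, 4 were lower and 6 did not pass, with a median log2 fold change of 0.02 (7 higher and 1 lower with total-count scaling). *Dtna*, the gene of dystrobrevin, rose by 0.54 (adjusted p = 0.00477 in edgeR's test), a call lost without Rnf40ΔSC replicate 1 (0.44, 0.0545) or control replicate 3 (0.41, 0.0842). *Sntb1*, a syntrophin, rose by 0.66 (adjusted p = 0.015), but not with DESeq2 (0.0671 with and 0.068 without a prior), nor without control replicate 1 (0.0792), control replicate 2 (0.0681) or Rnf40ΔSC replicate 3 (0.0796). *Tln1*, the gene of talin, fell by 0.49 (adjusted p = 9.5e-05), or by 0.22 with total-count scaling (0.0639, the highest over all alternatives). Over all 5 partner lists, 7 of 53 tested genes were higher and 19 were lower with TMM (15.4% and 16.2% of all tested genes), and 11 and 11 with total-count scaling (33.1% and 7.74%). The higher genes, *Ntn5* among them, were thus near or under the background share by either scaling.

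The cell types that make laminins were followed by marker lists, whose part in the laminin values was not tested. From RNA counts of whole nerve alone, fewer cells of a type and less RNA per cell cannot be told apart. In nerve sections the paper found a comparable share of Schwann cells in both genotypes and more macrophages in Rnf40ΔSC nerve at this age. The macrophage RNA sums given below went the other way with TMM, and the section counts were not used here. Of 7 Schwann cell lineage genes 6 were lower and 1 higher in Rnf40ΔSC nerve (1 of the lower, *Gfra3*, reached the filter level in controls only), and their summed normalized counts were 5872, 6858 and 6315 in control and 4000, 4033 and 3629 in Rnf40ΔSC libraries. All 8 myelinating Schwann cell genes were lower, from 264963, 304030 and 287620 to 73936, 69847 and 71140 summed. Of 7 immature or promyelinating Schwann cell genes 4 were higher and 2 lower, and the sum went from 1266, 1310 and 1238 to 2598, 3268 and 2629, led by *Pou3f1*. Schwann cell RNA was therefore present in every library. Beside the rise of *Lama1*, the sum of the myelinating list was lower and that of the immature or promyelinating list higher, though 2 genes of the latter fell.

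With TMM, other laminin sources were lower as well, by amounts near those of *Lamb1*, *Lamb2* and *Lama4*. Of 10 endothelial genes 6 were lower, with sums of 1570, 1380 and 1551 in control and 1009, 1007 and 1184 in Rnf40ΔSC libraries, led by *Cdh5*, and a median log2 fold change of -0.54. Of 9 pericyte and smooth muscle genes 6 were lower, with sums of 2420, 1838 and 2101 against 1311, 1272 and 1586, led by *Pdgfrb*, and a median of -0.63. Of 8 fibroblast genes 7 were lower, with sums of 101652, 99214 and 107613 against 75875, 72769 and 71913, led by *Col3a1*, and a median of -0.43. No Rnf40ΔSC library reached a control in any of these sums. With total-count scaling 1 endothelial, 4 pericyte and smooth muscle and 4 fibroblast genes were lower, with medians of -0.27, -0.37 and -0.16, and DESeq2 gave 4, 6 and 6 lower. In edgeR's test, with DESeq2 and at an unadjusted p under 0.05, 0 genes of these 3 lists were higher, but with total-count scaling the fibroblast gene *Lum* was (0.39, adjusted p = 0.00074).

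Of 7 tested perineurial genes 4 were lower, *Itgb4* among them, and 1, *Tjp1*, was higher (3 and 1 with total-count scaling). The 8 genes of the list summed to 2426, 2668 and 2574 against 2156, 1815 and 1975, with *Tjp1* the most abundant over all libraries and *Itgb4* in each control. Without *Itgb4* the other 7 summed to 1636, 1768 and 1649 against 1878, 1587 and 1673, which overlapped. Of 8 tested macrophage genes 7 were lower (4 with DESeq2 and 2 with total-count scaling), and the 9 of the list summed to 864, 796 and 869 against 584, 579 and 586, led by *Csf1r*. Of 6 adipocyte genes 3 were lower (2 with total-count scaling), with sums of 2201, 1628 and 2789 against 1735, 1590 and 1263, led by *Fabp4*. The macrophage sums were below all controls in every Rnf40ΔSC library, and the adipocyte sums overlapped.

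Skeletal muscle, a main source of *Lama2* outside nerve, varied between pools. The sums of 12 muscle genes were 8857, 6699 and 4982 in control and 179.5, 469 and 6246 in Rnf40ΔSC libraries, with *Myh4* the most abundant. Rnf40ΔSC replicate 3 was thus like the controls and replicates 1 and 2 were far below, and 0 of the 12 passed edgeR's test in this spread (0 with DESeq2 and 0 at an unadjusted p under 0.05). For *Myh4* the adjusted p ran from 0.00842 to 0.52 over all alternatives, so that its call depended on the fit. Beside the muscle sums, *Lama2* had 1019, 1168 and 1153 normalized counts in control and 1066, 972 and 1084 in Rnf40ΔSC libraries, and *Lama1* 82.1, 71.5 and 93.8 in the latter. The α1 chain is also made by epithelia. Of 7 squamous epithelial genes 2 were tested and 1 was higher (2 with total-count scaling). This was *Trp63*, with 2, 1 and 0 reads in control and 13, 9 and 14 in Rnf40ΔSC libraries, which like *Lama1* reached the filter level in Rnf40ΔSC libraries only, so that it had to differ. The list summed to 21.6, 17.0 and 16.7 against 39.4, 32.8 and 31.0, led by *Krt10*, and the defining keratins *Krt5* and *Krt14* had at most 2 reads in any library. In every list 0 genes were at 0 in all libraries.

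**Figure D5:**
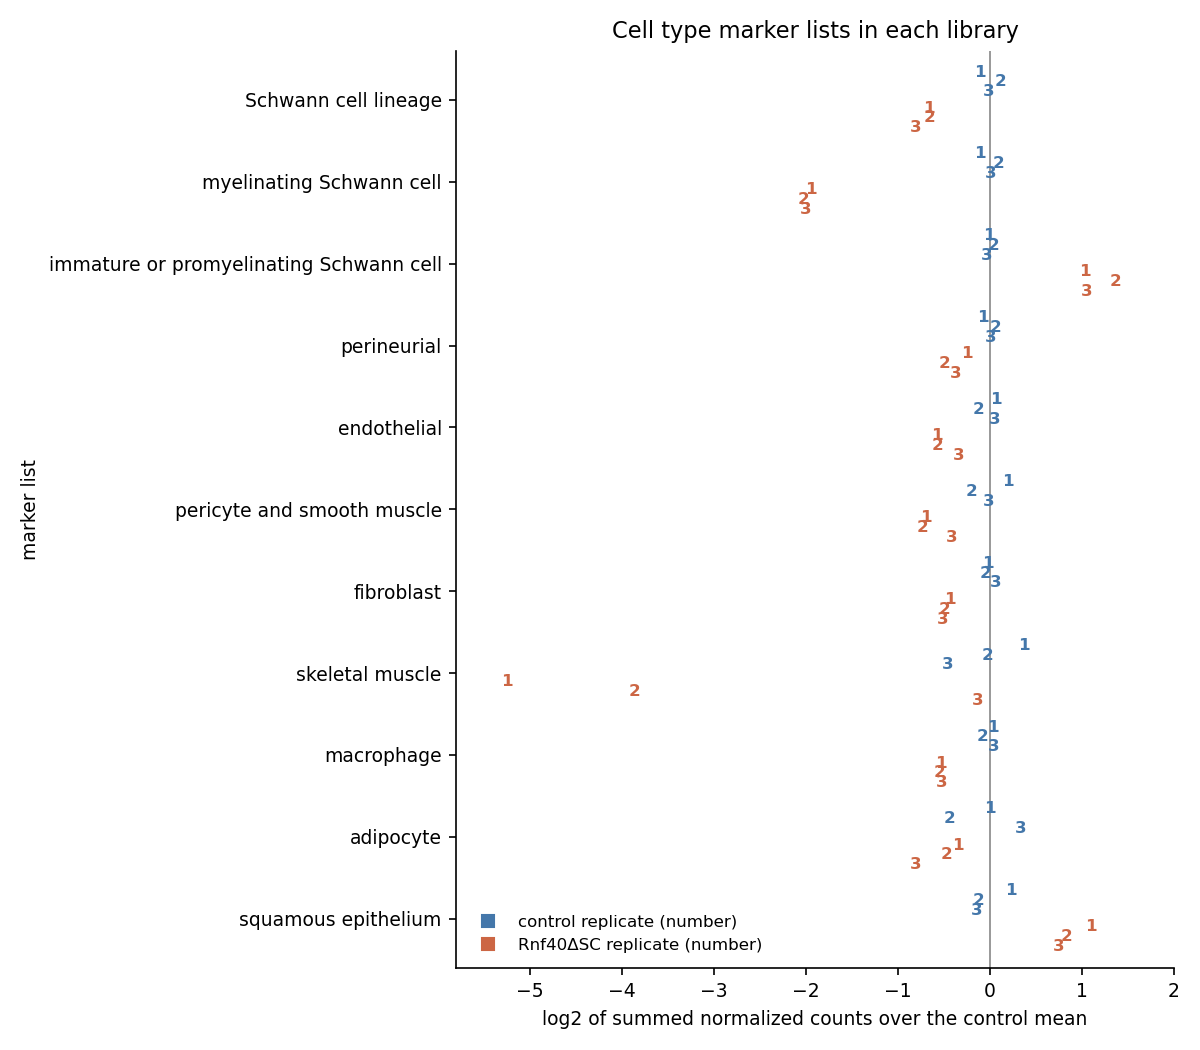
Log2 of the summed normalized counts of each marker list over its control mean (horizontal axis) in each library, with the lists on the vertical axis and each digit marking the replicate of that number, control in blue and Rnf40ΔSC in orange. Myelinating Schwann cell genes lie near -2 in all Rnf40ΔSC libraries, most lists of other cell types lie slightly left of 0, and skeletal muscle separates Rnf40ΔSC replicates 1 and 2 from replicate 3.

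For 8 chains, the gene outside the 10 chains with the highest Pearson correlation of log2 CPM over the 6 libraries was taken from 11362 genes, as a description. *Lama1* was closest to *Cct6a*, a chaperonin subunit (r = 0.997), *Lama2* to *Gm15800* (0.999), *Lama3* to *Usb1* (0.995), *Lama4* to *Fam219a* (0.997) and *Lama5* to *Mtfr1* (0.981). *Lamb1* was closest to *Apoe*, a lipid carrier that Schwann cells and macrophages also secrete (0.999), *Lamb2* to *Slc7a6* (0.998) and *Lamc1* to *Tubb4b* (0.999). Each r is the maximum over all genes compared, so its height carries no test.

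After these values had been seen, RefSeq promoter windows (GRCm38.p6, 250 bases before to 50 after a start) were searched on both strands for GCGNGGGCG. These are the letters of the motif of the EGR family, zinc finger factors that include Egr2. Of the 10 chains 5 had a window, namely *Lama2*, *Lama5*, *Lamb1*, *Lamb2* and *Lamb3*, and of 11 core partner genes 7 had one. Counted by gene, with a match in any of its windows, the motif was in 1695 of 27025 genes (6.27%), in 1 of the 5 chains, *Lamb1*, and in 4 of the 7 partners, *Agrn*, *Col4a1*, *Col4a2* and *Dag1*, of which *Col4a1* and *Col4a2* share a single site. The stretches of 30 bases around it are shown 5′ to 3′ on the strand of the gene, with the motif, or its reverse complement for *Lamb1*, in capitals. That of *Lamb1* lies at chr12:31265209-31265238 (plus strand), that of *Col4a2* at chr8:11312798-11312827 (plus strand; *Col4a1* starts from the other strand) and that of *Dag1* at chr9:108263991-108264020 (minus strand).
Lamb1: ccgccccctcCGCCCCCGCtctccatgtgc
Col4a2: cctcggcagtGCGCGGGCGgcgtctccaag
Dag1: ggcttttgggGCGGGGGCGtgacaggccaa
The match begins 74 bases before the start in *Lamb1* and 3 after it in *Col4a2*. *Dag1* has 2 windows, and its match begins 52 bases before one start and 195 before the other, which has a further match in reverse orientation 4 bases after it. A match gives letters only, and binding was not measured here. *Lamb2* had no match in its window. The background of 6.27% was not matched for base composition, and whether the motif bears on any change was not tested.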

How the data were processed

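Total RNA of P14 sciatic nerve was sequenced from 3 control and 3 Rnf40ΔSC pools. Per the methods, the authors aligned reads to mm9 with TopHat and assigned unique reads with HTSeq; the deposited values are raw counts by gene; the processing notes in the labels also list Bowtie2 2.1.0 and mm10. The labels name a NEB Next Ultra kit and the methods a directional NEXTFLEX kit; annotation and strand setting are not given in the sources used here, so overlapping genes are uncertain. All 24015 rows name a gene. Replicates are labelled biological, differed by more than sampling noise (chi-square per degree of freedom 1.85 to 5.60), and p-values measure the spread between these pools.

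Counts were fitted in R 4.3.3 with edgeR 4.0.16 (filterByExpr, TMM, robust quasi-likelihood, genotype as the only term, Benjamini-Hochberg over 11371 genes), after a test on simulated data. Shares and ratios used counts per kilobase of exon (GENCODE vM1, mm9) and exact two-sided permutation tests (SciPy 1.17.1). Alternatives were RLE and total-count scaling, DESeq2 1.42.0 with and without prior, other filters, a replicate block and each library left out. Ratios, trimer products and the motif search were added after the data had been seen. Named genes were all chains, *Rnf40*, core partners, in each partner list the 4 largest changes that passed without overlap, the most correlated gene of each chain and the leading gene of each marker list, of which some are not reported here; *Bcam*, *Sparc*, *Krt5*, *Krt14*, *Trp63*, *Lum*, *Gfra3* and *Gm13441* were named after their values were seen. Members and lists were chosen with earlier results of these data known.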

Additional observations from a re-analysis of the deposited data

How the results depend on the processing

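With total-count scaling 3 chains passed in place of 5, and 1 rather than 3 was lower, as *Lama4* (log2 fold change -0.15) and *Lamb2* (-0.21) lost the call, as did *Rnf40* (-0.27); *Lama2* (0.17), *Lamc1* (0.16), *Dag1* (0.041), *Itgb1* (0.10), *Itga7* (0.15) and *Nid1* (0.17) changed sign. Of the partner genes 11 were then higher and 11 lower. Under the limits of the study 2 chains passed, 0 of them lower, and 4 partner genes, 0 higher and 4 lower. With at least 10 counts in every library 1 chain was higher, since *Lama1* was no longer tested. In all, 108 of 115 chain fits and 285 of 311 fits of other named genes kept direction and side of the threshold.

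With 1 library left out at a time, 4 to 6 chains passed, 1 to 2 higher and 3 to 4 lower, and 22 to 26 partner genes, 4 to 7 higher and 17 to 20 lower. Log2 fold changes then ran from 0.12 to 0.94 for *Lama3*, from -0.16 to -0.048 for *Lama2*, from -0.15 to -0.070 for *Lamc1*, from -0.21 to -0.032 for *Itga7*, from -0.51 to -0.19 for *Lama5*, from 0.78 to 1.14 for *Lamc3* and from -0.065 to 0.097 for *Hspg2*. Differences in share ran from -0.929 to 0.00309 points for *Lama5*, -1.14 to 1.57 for *Lamb1*, -1.67 to 1.20 for *Lamb2*, -0.0525 to 0.102 for *Lamb3* and 0.157 to 0.678 for *Lama3*, and the products, an alternative chosen after seeing the data, from 0.923 to 2.85 for laminin 211, 0.0454 to 1.37 for laminin 221, -0.665 to -0.0561 for laminin 511 and -0.289 to 0.0251 for laminin 521. Raw counts, or the longest coding sequence in GENCODE as length, reversed the genotype difference of 0 shares, ratios or products, but they turned the order of *Lama2* and *Lama4*, and of laminins 211 and 411, in control with either and in Rnf40ΔSC libraries with the coding sequence. The mean difference of the perineurial sum was -574 normalized counts, and 28.4 without *Itgb4*, also chosen after seeing the data. The cause of these changes was not tested.

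No pairing by replicate number was seen (correlations of deviations -0.095, -0.015 and -0.062 for replicates 1, 2 and 3). The labels do not say whether equal numbers mark a shared litter or day, and these values cannot exclude it. With the replicate block 5 chains passed, 2 higher and 3 lower, and 26 partner genes.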
